A study of Mus musculus with 16 samples.

Results

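The comparison described here is that of CD11c-low eosinophils of the mouse duodenum at ZT15 against ZT3, across all genes that the authors' deposited table lists for it. Immunoglobulin segments were left out by their symbols, which removed 14 of 1340 rows and left 1326 genes, of 1413 genes in either table of the study. The study sorted eosinophils from the lamina propria, the connective tissue under the intestinal epithelium, at 3 h (titled AM) and 15 h (titled PM) of zeitgeber time, or ZT, which counts from lights on. CD11c is the surface integrin chain encoded by Itgax, and cells with low and with high CD11c were collected apart. All 16 libraries were made from 1000 sorted cells each, and there were 4 libraries per subset and time, 8 of them CD11c-low. The labels name no genotype or agent that separates the groups, which differ in them by the time of collection, and the sources used here give no strain, age, lighting history or collection day. The title of the study places these cells in the daily control of duodenal regulatory T cells by gut neurons and eosinophils.

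Eosinophils are granulocytes that leave the bone marrow nearly mature, settle in the small intestine and live there longer than in blood. They carry granule proteins, lipid mediators and a large set of activating and inhibitory surface receptors, and their activity in the gut follows feeding and neuropeptides such as vasoactive intestinal peptide. In mice, which feed at night, ZT3 falls in the resting phase and ZT15 in the active phase. Circadian change in a cell type can reach surface receptors, lysosomes, lipid handling and the machinery that makes, splices and removes RNA and protein, and the genes are grouped below by these roles.

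The table holds genes with an s-value under 0.05 only. An s-value estimates how many signs would be wrong, as a share, if a gene and all genes with stronger evidence were called, so the table is an account of which way each listed gene moved. Of the 1326 genes, 692 were higher at ZT15 (52.2%) and 634 were lower (47.8%), and 504 (38%) had an s-value under 0.01. How many genes were tested is unknown, so these shares are of listed genes, and the s-values imply about 67.0 wrong signs among the 1326. Each log2 change below is the authors' estimate, ZT15 over ZT3, with ± its standard error as deposited, and rests on 4 libraries at each time. The average normalised count is the average over libraries after scaling for depth, and it is not corrected for gene length. No value of a single library was analysed here, so levels per library and their overlap between times cannot be shown. Most changes were modest. Among genes with an average normalised count of at least 50, 135 rose and 146 fell by 0.5 or more on the log2 scale, and 6 rose and 5 fell by 1 or more. In the lowest quartile of abundance 43.4% of listed genes were higher, and in the highest 56.6%.

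**Figure D1:**
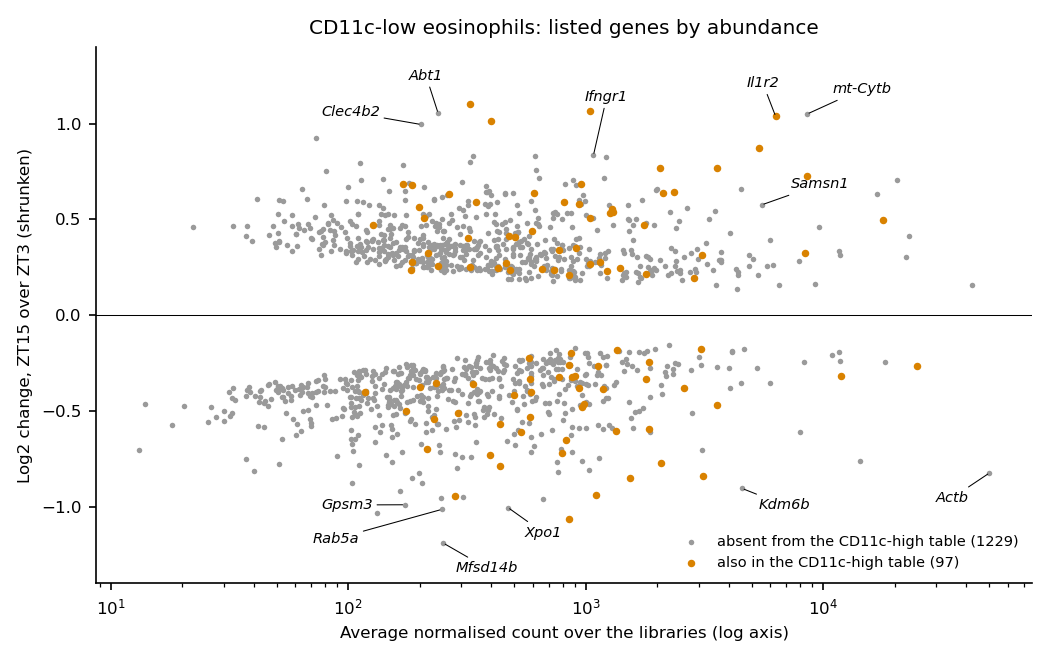
Each point is a listed gene, with its average normalised count on a log axis and its log2 change at ZT15 over ZT3. Grey points are the 1229 genes absent from the CD11c-high table and orange points the 97 genes in both. Of the grey genes 640 lie above 0 and 589 below it, and 5 genes in all lie beyond the plotted range. The empty band around 0 reflects that only genes with an s-value under 0.05 are listed.

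The CD11c-high table lists only 163 genes, immunoglobulin segments left out, so most of the 1326 had to be absent from it. A gene absent from it was not called or not tested there. Absent were 1229 of the 1326 genes, or 92.7%. Among these, the increase with the smallest s-value was mt-Cytb, and next to it stood Ifngr1, the ligand-binding chain of the interferon gamma receptor. Ifngr1 (ENSMUSG00000020009.14) rose by 0.83 ± 0.15 in the authors' deposited table, a fold of 1.78 (s-value 4.6e-09, average normalised count 1079). Samsn1 (ENSMUSG00000022876.19), an adaptor protein of blood cells, rose by 0.58 ± 0.12, and F5, which encodes coagulation factor V, by 0.54 ± 0.13 in the authors' deposited table. Cd300lf, an inhibitory receptor for membrane lipids, rose by 0.50 ± 0.12 (s-value 7.96e-07) in the authors' deposited table. Pdcd6, a calcium-binding protein of membrane repair and vesicle transport, rose by 0.70 ± 0.18, and Sub1, a transcriptional coactivator, by 0.56 ± 0.15 in the authors' deposited table. Mitochondrially encoded transcripts, which also serve as a measure of RNA and cell quality, rose in 5 of 6 listed cases, at a median log2 change of 0.66 over the 6. The 5 that rose were absent from the CD11c-high table. The member that fell, with a log2 change of -0.27, was in both tables and was the most abundant of the 6 (average normalised count 24886). Beside mt-Cytb (1.05 ± 0.18), mt-Co1 stood at 0.66 ± 0.13 and mt-Nd4 at 0.65 ± 0.13 higher in the authors' deposited table. Malat1, a long RNA that stays in the nucleus, was also among the smallest s-values, with an increase of 0.63 ± 0.15 in the authors' deposited table. The part of RNA quality in the other gene groups was not tested.

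The decreases absent from the CD11c-high table were led by Mfsd14b, Rab5a, Xpo1 and Kdm6b, and were followed by genes of the cytoskeleton, of translation and of the nuclear envelope. Pstpip2, which bends membranes and binds actin regulators, fell by 0.68 ± 0.18 in the authors' deposited table. Eif1, the factor that lets the ribosome choose its start codon, fell by 0.70 ± 0.16 (s-value 9.33e-07, average normalised count 3099) in the authors' deposited table. Gpsm3, which binds inhibitory G protein alpha subunits, fell by 0.99 ± 0.25, a fold of 0.504, in the authors' deposited table. Lbr, the lamin B receptor that ties chromatin to the nuclear envelope, fell by 0.96 ± 0.27 in the authors' deposited table. Ube3a (-0.95 ± 0.24), a ubiquitin ligase, Tm9sf3 (-0.95 ± 0.26), a Golgi membrane protein, and Arl2bp (-0.92 ± 0.30), a partner of the small GTPase Arl2, stood close to it in the authors' deposited table. Ptbp3, a splicing repressor, fell by 0.76 ± 0.21 in the authors' deposited table.

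By function, 1016 of the 1326 genes fell into at least 1 of 47 lists, which overlap in places. Where a list's share of higher members is set beside 52.2%, the share among all listed genes, this describes the table and is not a test. Among lists with 8 or more listed genes, those with the largest share of increases were ribosome biogenesis, cAMP-responsive genes, proteasome, interferon response and innate receptors, together with active-state and eicosanoid genes. Cytosolic ribosomal proteins, mRNA decay, nuclear pore, transcription factors and ubiquitin ligases had the largest share of decreases. Lists of kinases, phosphoinositide signalling, oxidative phosphorylation, cytokines and microtubules were split nearly evenly.

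**Figure D2:**
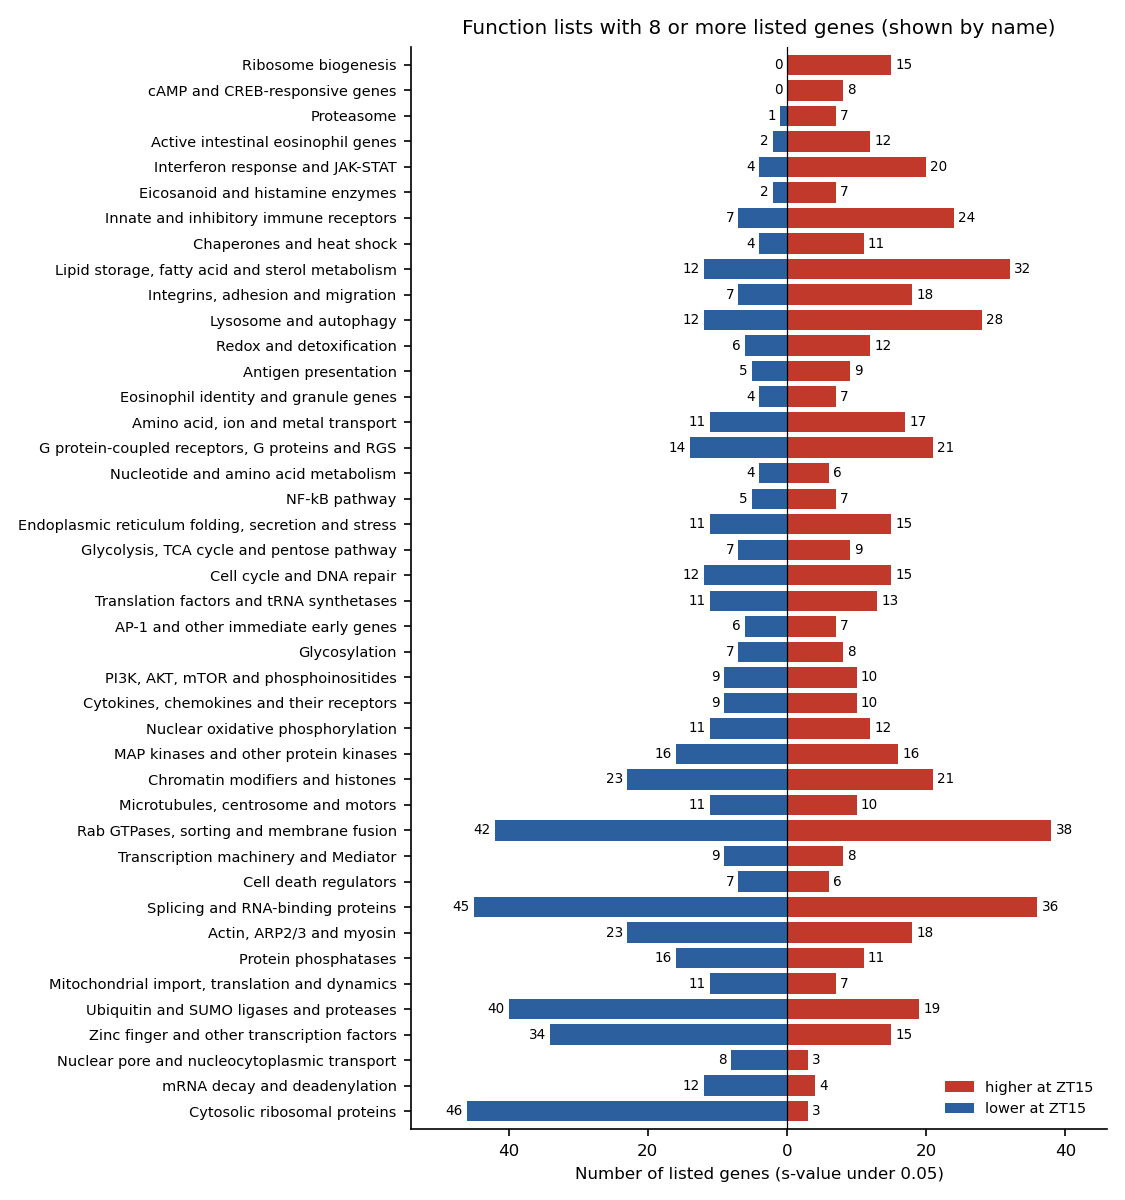
Bars give, for each of 42 function lists with 8 or more listed genes, how many were higher (red, to the right) and lower (blue, to the left) at ZT15, ordered by the share that was higher. Ribosome biogenesis stands at 15 higher and 0 lower, and cytosolic ribosomal proteins at 3 higher and 46 lower.

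Innate and inhibitory receptors were higher at ZT15 in 24 of 31 listed cases (77.4%, against 52.2% of all listed genes). Their median log2 change was 0.32, against 0.21 over all listed genes. Such a median over both directions, here and below, largely follows the share that rose. Among members that rose the median was 0.34, against 0.35 for all listed genes that rose. The 3 listed CD300 receptors, a family that senses membrane lipids and either dampens or triggers myeloid cells, all rose. Beside Cd300lf, the authors' deposited table gave Cd300ld 0.58 ± 0.21 and Cd300c2 0.36 ± 0.21. Both listed C-type lectins rose, Clec4b2 by 1.00 ± 0.32 and Clec4a4 by 0.47 ± 0.15 in the authors' deposited table. Milr1, an inhibitory receptor also known as allergin, rose by 0.69 ± 0.26, and Fcgr3, an activating receptor for antibody, by 0.34 ± 0.17 in the authors' deposited table. Treml4, a receptor for dying cells, rose by 0.39 ± 0.23 in the authors' deposited table. Kinases that act under such receptors did not move together. The Src family kinase Fgr (0.36 ± 0.15) was higher, and its relative Lyn (-0.31 ± 0.17) and the Tec family kinase Btk (-0.39 ± 0.24) were lower, in the authors' deposited table. The members that fell also included the inhibitory receptors Lilrb4a (-0.54 ± 0.19), Lilrb4b (-0.27 ± 0.12) and Siglece (-0.31 ± 0.20) in the authors' deposited table. Clec4, Cd300 and Lilrb genes have close copies, and the sources used here do not say how shared reads were counted, so their values are uncertain.

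Interferon response and JAK-STAT genes were higher in 20 of 24 cases (83.3%), at a median log2 change of 0.34. Interferon gamma binds Ifngr1, Ifngr2 completes the receptor, and Jak1 and Jak2 then act on STAT factors. The receptor chains moved apart: Ifngr1 rose, and Ifngr2 fell by 0.39 ± 0.23 (s-value 0.0132) in the authors' deposited table. Jak2 rose by 0.52 ± 0.23 and Stat3 by 0.34 ± 0.17 in the authors' deposited table. Among transcription factors, the activator Irf1 rose and Irf2, its antagonist at many promoters, fell by 0.57 ± 0.26 in the authors' deposited table. Nmi, an interferon-induced partner of STATs, rose by 0.61 ± 0.25 in the authors' deposited table. The antiviral membrane proteins Ifitm3 (0.53 ± 0.25), Ifitm1 (0.40 ± 0.19) and Ifitm2 (0.24 ± 0.16) all rose in the authors' deposited table, though reads of these near-identical genes may be shared. Sting1, which relays the presence of cytosolic DNA, rose by 0.34 ± 0.28 in the authors' deposited table, with an s-value of 0.0419. Apobec3, an editing enzyme that restricts retroviruses, fell by 0.49 ± 0.25 in the authors' deposited table.

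**Figure D3:**
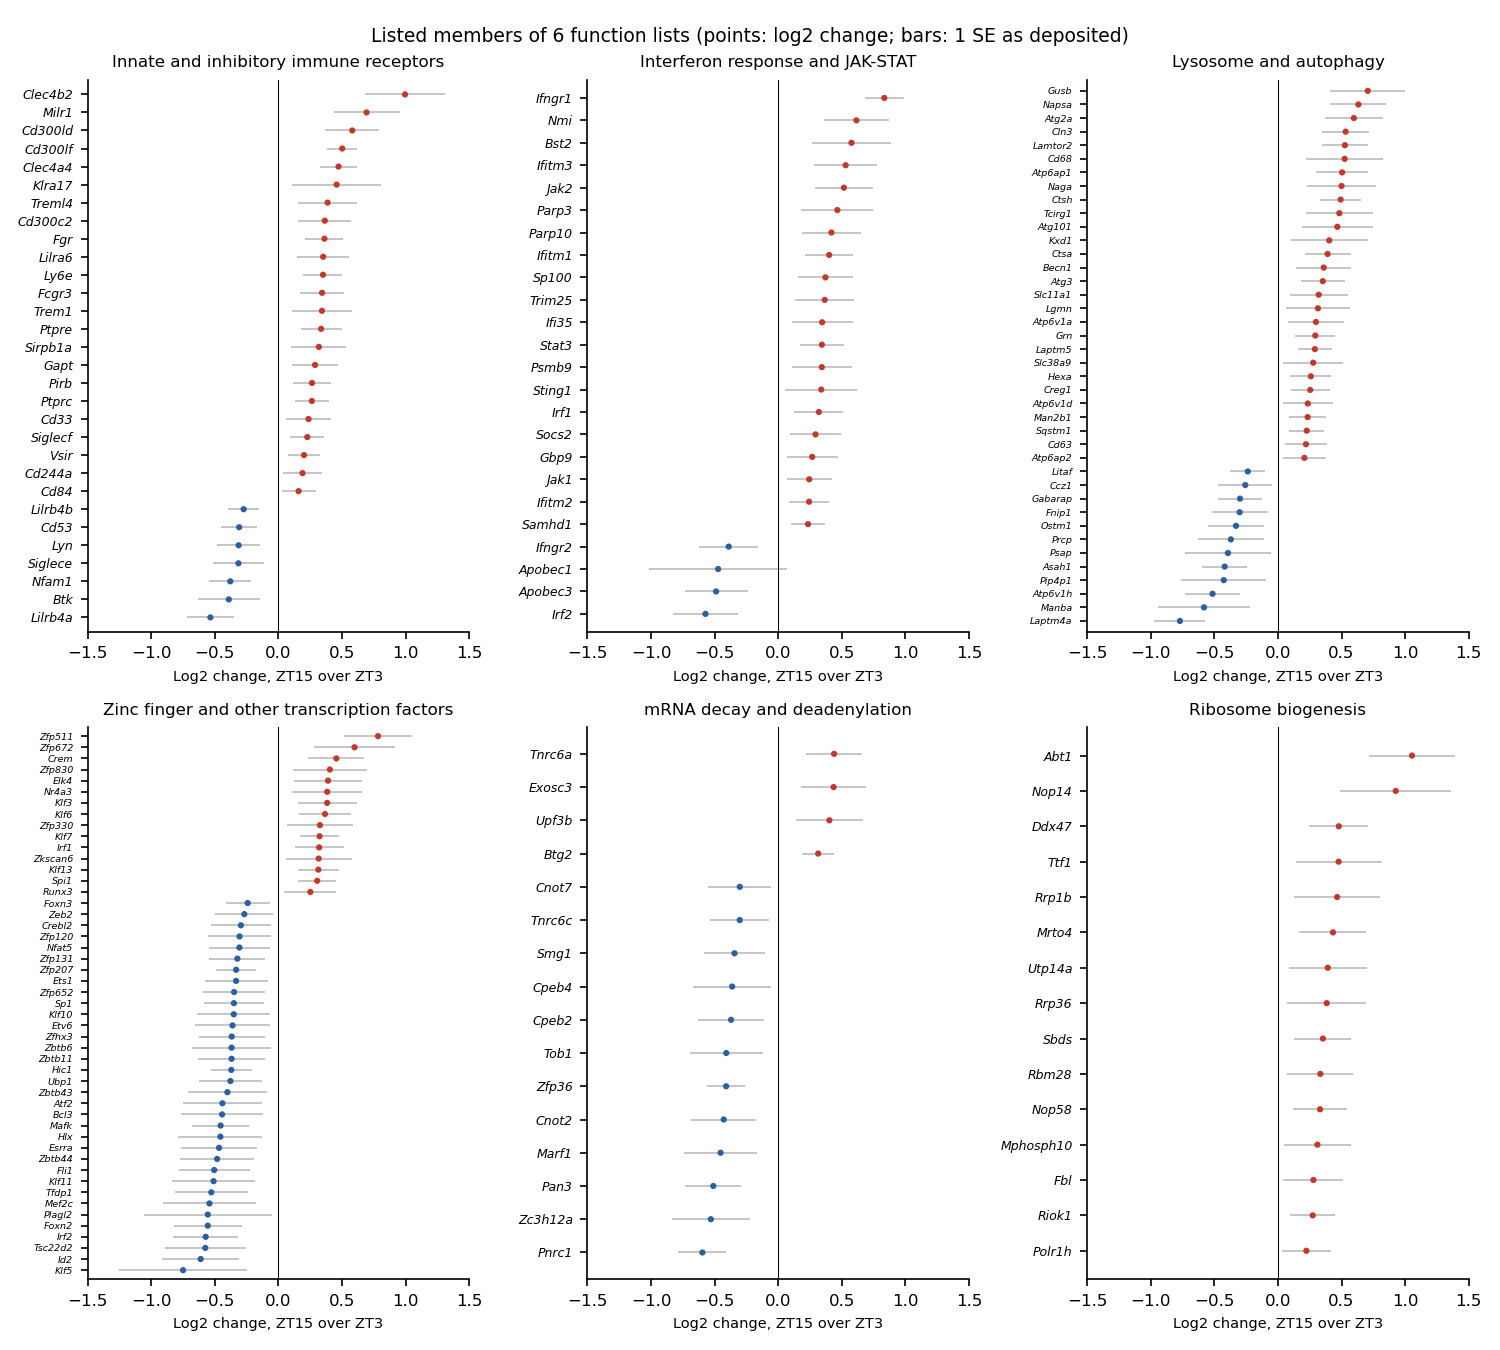
Each panel shows listed members of 1 function list, with the log2 change at ZT15 over ZT3 as a point (red higher, blue lower) and 1 standard error as deposited as a bar. In the panel of interferon genes 20 of 24 members lie above 0 and in that of ribosome biogenesis 15 of 15, and in that of transcription factors 34 of 49 lie below 0.

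The 3 listed RGS proteins and the 3 listed G protein subunits moved in opposite directions. RGS proteins speed the turn-off of G protein alpha subunits, and the 3 listed members all rose. These were Rgs1 (0.71 ± 0.19, average normalised count 20407), Rgs2 (0.60 ± 0.15) and Rgs14 (0.44 ± 0.20) in the authors' deposited table. The 3 listed subunits of the G proteins themselves all fell. Gnai3, an inhibitory alpha subunit, fell by 0.80 ± 0.26, Gnaq by 0.32 ± 0.16 and Gng5 by 0.28 ± 0.20 in the authors' deposited table. Gpsm3, described above, is a regulator in the same list and fell as well. Receptors were mixed: the thrombin receptor gene F2rl3 rose by 0.60 ± 0.28, and the lysophospholipid receptor gene P2ry10 fell by 0.58 ± 0.22 in the authors' deposited table. Higher levels were listed for the short-chain fatty acid receptor gene Ffar2 (0.27 ± 0.17) and the leukotriene B4 receptor gene Ltb4r1 (0.33 ± 0.20) in the authors' deposited table. Over the whole list 21 rose and 14 fell, a share of 60% higher.

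All 8 listed genes of the cAMP and CREB list rose. CREB binds cAMP response elements, whose shared core is TGACG. Promoter windows of 250 bases before to 50 after the start were taken from RefSeq (GRCm38.p6) by gene symbol. They matched 5 of the 8 genes, and a gene was counted if any of its windows held the letters. All 5 genes held TGACG on either strand, against 40.5% of 1011 listed genes with a window and 23% of all 27025 genes with one. The list gathers genes named for their response to cAMP and CREB, so this share is in part how the list was chosen. The full palindrome TGACGTCA was in none of the 5 and in 2.03% of all genes. Letters in a window are a description and not a bound site, and the coordinates below are of GRCm38.p6, an older build than the GRCm39 of the processing notes. The stretches show the match nearest to the start, with TGACG, or CGTCA on the other strand, in capitals, because these are the 5 of the 8 members with a window. They lie on chr12:85473796-85473855 (+) for Fos, chr7:19310074-19310133 (-) for Fosb, chr4:48045130-48045189 (+) for Nr4a3, chr1:144004185-144004244 (-) for Rgs2 and chr4:102421493-102421552 (+) for Pde4b, each upstream of the transcription start.
Fos: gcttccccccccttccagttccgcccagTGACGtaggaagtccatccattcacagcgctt
Fosb: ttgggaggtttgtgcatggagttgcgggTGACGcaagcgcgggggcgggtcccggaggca
Nr4a3: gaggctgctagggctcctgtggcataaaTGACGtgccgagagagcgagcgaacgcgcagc
Rgs2: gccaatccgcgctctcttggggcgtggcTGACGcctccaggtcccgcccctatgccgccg
Pde4b: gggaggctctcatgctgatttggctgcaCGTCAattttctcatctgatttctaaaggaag

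Listed genes that rose and that fell held TGACG in nearly equal shares, 40.7% and 40.2%, so the motif did not separate the directions over the table as a whole. In the ribosome biogenesis list 9 of 12 matched genes held it, and in the innate receptor list 4 of 25.

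Lysosome and autophagy genes rose in 28 of 40 cases (70.0%). Lysosomes break down material with acid hydrolases, and a proton pump in their membrane keeps them acidic. Of 11 listed hydrolases 8 rose, among them Ctsh (0.49 ± 0.16), an aminopeptidase, Napsa (0.63 ± 0.22), an aspartic protease, and Gusb (0.71 ± 0.30), which cleaves glucuronic acid from glycans, in the authors' deposited table. Asah1, acid ceramidase, stood at -0.42 ± 0.18 in the authors' deposited table. Of 6 listed genes of the vacuolar proton pump 5 rose. Atp6ap1 (0.50 ± 0.21) and Tcirg1 (0.48 ± 0.26) had the largest increases of these in the authors' deposited table, and Atp6v1h, a regulatory subunit, fell by 0.51 ± 0.22. Cln3, a lysosomal membrane protein whose loss causes neuronal storage disease, rose by 0.53 ± 0.18, and Lamtor2, which anchors mTORC1 at lysosomes, by 0.53 ± 0.18 in the authors' deposited table. Among autophagy genes, Atg2a (0.60 ± 0.23), Atg101 (0.47 ± 0.28), Becn1 (0.36 ± 0.21) and Atg3 (0.35 ± 0.17) rose in the authors' deposited table. Gabarap, which coats the autophagosome membrane, fell by 0.30 ± 0.17 in the authors' deposited table.

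CACGTG, a palindrome, is the core of the element that TFEB and related factors bind at lysosomal genes, and it is also an E-box of the kind that clock factors bind. It was in 7 of 33 lysosome and autophagy genes with a promoter window (21.2%) and in 8 of 32 lipid genes (25%), against 13.1% of listed genes and 8.09% of all genes. Listed genes that rose held it in 12.4% of cases and those that fell in 13.8%. Of the 7 lysosome and autophagy genes, Atg3, Atp6v1a, Cln3, Ctsa and Lgmn rose, and Fnip1 and Pip4p1 fell. Not all 7 are printed: the stretches shown are of 3 genes that rose, chosen after their values were seen. These stretches hold each gene's match nearest before the start, with CACGTG in capitals. They lie on chr7:126583326-126583385 (-) for Cln3, chr16:45158730-45158789 (+) for Atg3 and chr2:164833713-164833772 (+) for Ctsa (protective protein of lysosomal galactosidase), upstream of the start in GRCm38.p6.
Cln3: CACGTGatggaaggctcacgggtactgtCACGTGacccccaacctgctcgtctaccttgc
Atg3: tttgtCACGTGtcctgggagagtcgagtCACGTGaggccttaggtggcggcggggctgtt
Ctsa: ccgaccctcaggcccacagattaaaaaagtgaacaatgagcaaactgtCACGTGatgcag
Cln3 and Atg3 hold 2 copies each in the stretch and Ctsa 1. Ctsa rose by 0.39 ± 0.18 in the authors' deposited table.

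Lipid genes rose in 32 of 44 cases (72.7%), at a median log2 change of 0.31, and 7 of the 44 were also in the CD11c-high table (15.9%, against 7.32% of all CD11c-low genes). Cells sense sterols through Scap, which carries SREBP factors (Srebf1, Srebf2) out of the endoplasmic reticulum, while Insig1 holds them back. Of 7 listed genes of sterol supply and SREBP control 6 rose. Pmvk, an enzyme of the mevalonate pathway, rose by 0.77 ± 0.19 and the sterol carrier gene Stard4 by 0.38 ± 0.21 in the authors' deposited table. Srebf1 (0.53 ± 0.38) and Scap (0.38 ± 0.28) had wider errors in the authors' deposited table, with s-values of 0.022 and 0.0266. The member that fell was Insig1. Of 7 listed genes of fatty acid oxidation 6 rose, with Eci2 at 0.67 ± 0.26, Acat1 at 0.47 ± 0.25 and Etfa at 0.44 ± 0.22 in the authors' deposited table. Acot7, which releases fatty acids from coenzyme A, rose by 0.60 ± 0.21 in the authors' deposited table. Ugcg, the first enzyme of glycosphingolipid synthesis, fell by 0.82 ± 0.27 in the authors' deposited table. Crat, the remaining gene of fatty acid oxidation, had a fitted change of -3.68 ± 2.03 in the authors' deposited table at an average normalised count of 24.6, from which no fold is read.

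Mitochondrial genes of nuclear origin were divided by role. Of 8 listed enzymes and subunits of the tricarboxylic acid cycle and its entry step 6 rose, such as Idh3g (0.53 ± 0.28), Pdhb (0.45 ± 0.24), Sdhd (0.58 ± 0.29) and Sdhb (0.37 ± 0.17) in the authors' deposited table. Of 18 listed subunits of the respiratory complexes 8 rose and 10 fell, with Uqcrc1 at 0.35 ± 0.23 and Ndufb10 at -0.47 ± 0.25 in the authors' deposited table. In the outer membrane, the channel gene Vdac1 fell by 0.77 ± 0.27 and the insertase gene Mtch1 by 0.88 ± 0.39 in the authors' deposited table. The pore and regulators of mitochondrial calcium uptake fell together: Mcu by 0.45 ± 0.26, Micu2 by 0.39 ± 0.24 and Smdt1 by 0.37 ± 0.17 in the authors' deposited table. The import, translation and dynamics list as a whole had 7 higher and 11 lower members.

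Genes that build ribosomes and genes that form them moved in opposite directions. All 15 listed genes of ribosome biogenesis rose, at a median log2 change of 0.38, whereas cytosolic ribosomal proteins fell in 46 of 49 cases, at a median of -0.34. The biogenesis list was drawn up after the values of Abt1 and Nop14 had been seen, so its direction is in part how it was chosen. Abt1, a nucleolar protein of small-subunit assembly, rose by 1.05 ± 0.34, a fold of 2.08, and Nop14, its companion in the processome, by 0.93 ± 0.43 in the authors' deposited table. Ddx47 (0.48 ± 0.23), an RNA helicase of rRNA maturation, and Mrto4 (0.43 ± 0.26), a large-subunit assembly factor, rose less in the authors' deposited table. Sbds (0.35 ± 0.22) frees the large subunit for joining, and Nop58 (0.33 ± 0.21) and Fbl (0.28 ± 0.24) belong to the particles that methylate rRNA, with values from the authors' deposited table. Evidence per gene was thin: 3 of the 15 had an s-value under 0.01, the median average normalised count was 126, and about 0.96 wrong signs are expected among them.

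Large-subunit ribosomal proteins had 28 lower and 2 higher members, and small-subunit ones 18 lower and 1 higher, so both subunits took part. The large-subunit exceptions were Rpl3 (0.26 ± 0.18) and Rpl7a (0.23 ± 0.17), with s-values of 0.0268 and 0.0327 in the authors' deposited table. Among those that fell and were absent from the CD11c-high table, Rpl12 (-0.71 ± 0.21), Rpl28 (-0.60 ± 0.20), Rplp2 (-0.59 ± 0.21) and Rpl23 (-0.57 ± 0.19) led in the authors' deposited table. The CD11c-high table listed 12 of the 49, a share of 24.5% against 7.32% of all CD11c-low genes. Ribosomal protein genes have many processed copies, and the treatment of shared reads is unknown. Without the 49 genes, 689 of 1277 listed genes were higher (54.0%).

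Translation factors, with 13 higher and 11 lower, had no common direction. The initiation helicase gene Eif4a1 fell by 0.81 ± 0.23, and the elongation factor genes Eef1b2 and Eef2 by 0.43 ± 0.17 and 0.27 ± 0.13 in the authors' deposited table. Eif2b2, a subunit of the exchange factor that reloads eIF2, rose by 0.75 ± 0.34, and Eif4g2 and Eif3a by 0.31 ± 0.16 and 0.32 ± 0.18 in the authors' deposited table. The 3 listed aminoacyl-tRNA synthetases were higher, with Hars at 0.31 ± 0.26, Qars at 0.27 ± 0.23 and Eprs at 0.25 ± 0.19 in the authors' deposited table, all with s-values above 0.03.

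Genes that shorten and remove mRNA were lower in 12 of 16 cases (25% higher), at a median log2 change of -0.37. Pnrc1, which binds the decapping complex, fell by 0.60 ± 0.19, and Pan3, a subunit of a deadenylase, by 0.51 ± 0.22 in the authors' deposited table. Zc3h12a, or Regnase-1, which cuts the mRNAs of inflammatory genes, fell by 0.53 ± 0.31 (s-value 0.0109, average normalised count 104) in the authors' deposited table. Subunits of the CCR4-NOT deadenylase fell, Cnot2 by 0.43 ± 0.26 and Cnot7 by 0.30 ± 0.25, as did Tob1, which recruits it, by 0.41 ± 0.29 in the authors' deposited table. The members that rose were Btg2 (0.31 ± 0.12), Tnrc6a (0.44 ± 0.22), Exosc3 (0.44 ± 0.26) and Upf3b (0.40 ± 0.26) in the authors' deposited table, so opposite signs occurred within nonsense-mediated decay, where Smg1 fell by 0.34 ± 0.24.

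Transport through the nuclear pore had 8 lower and 3 higher members. After Xpo1, the exporter of proteins with a nuclear export signal, which fell by 1.00 ± 0.21 (fold 0.499), stood the importins Kpna4 (-0.68 ± 0.30) and Ipo7 (-0.51 ± 0.31) in the authors' deposited table. The pore proteins Nup98 (-0.31 ± 0.21) and Nup210 (-0.25 ± 0.17) were lower, and Tpr (0.30 ± 0.18) and Rae1 (0.25 ± 0.22) higher, in the authors' deposited table.

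Splicing and RNA-binding proteins formed the longest list, with 36 higher and 45 lower of 81. SR proteins, which mark exons for the spliceosome, fell in 5 of 6 listed cases. Srsf10 fell by 0.35 ± 0.19, Srsf1 by 0.38 ± 0.28, Srsf3 by 0.25 ± 0.13 and Tra2a by 0.26 ± 0.14 in the authors' deposited table, and the exception, Srsf7, rose by 0.60 ± 0.20. Mbnl1, a regulator of alternative exons, fell by 0.61 ± 0.19, and Hnrnpu, a nuclear RNA-binding scaffold, by 0.53 ± 0.21 in the authors' deposited table. U2af2, which recognises the end of introns, fell by 0.67 ± 0.34 in the authors' deposited table. Nsrp1 (0.83 ± 0.24), Zc3h13 (0.55 ± 0.21), a subunit of the writer complex for m6A, and Srrm1 (0.46 ± 0.17) rose in the authors' deposited table. SR and related genes make transcripts with retained exons that are not translated, and values per gene do not separate such forms.

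Ubiquitin and SUMO genes fell in 40 of 59 cases (32.2% higher, against 52.2% of listed genes), at a median of -0.29, while the proteasome rose in 7 of 8. Ubiquitin ligases choose the proteins that the proteasome then degrades. HECT ligases fell in 5 of 6 listed cases, from Ube3a with the largest decrease to Herc1 (-0.23 ± 0.18) with the smallest, and Ube3b rose by 0.51 ± 0.32 in the authors' deposited table. RING finger proteins had 9 lower and 5 higher members, and Rnf111, which acts on repressors of TGF-beta signalling, fell by 0.66 ± 0.24 in the authors' deposited table. Mdm2, the ligase of p53, fell by 0.53 ± 0.20, and the F-box gene Fbxw7 by 0.46 ± 0.29 in the authors' deposited table. Neurl3 (0.38 ± 0.12) and Rnf114 (0.39 ± 0.20) rose in the authors' deposited table. Csnk1e, a kinase that marks period proteins of the clock for such ligases, was higher, at 0.54 ± 0.15, in the authors' deposited table. In the proteasome, Psmd12 (0.46 ± 0.23), of the regulatory particle, and Psmb4 (0.35 ± 0.20), of the core, rose, and Sem1 fell by 0.19 ± 0.12 in the authors' deposited table. Psmb9, the interferon-inducible catalytic subunit, rose by 0.34 ± 0.23 in the authors' deposited table. Only 2 of the 8 proteasome genes had an s-value under 0.01.

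Transcription factors fell in 34 of 49 cases (30.6% higher), at a median of -0.35. Among those lower were Foxn2 (-0.56 ± 0.27), Id2 (-0.61 ± 0.30), an inhibitor of helix-loop-helix factors, and Hic1 (-0.37 ± 0.16), a repressor linked to retinoic acid in intestinal immune cells, in the authors' deposited table. Fli1 (-0.51 ± 0.28), Ets1 (-0.33 ± 0.25) and Etv6 (-0.36 ± 0.29), of the ETS family, fell in the authors' deposited table, and Spi1, the ETS factor PU.1, rose by 0.30 ± 0.15. All 4 listed Zbtb genes were lower, from Zbtb44 at -0.48 ± 0.29 to Zbtb11 at -0.37 ± 0.26 and Zbtb6 at -0.37 ± 0.31 in the authors' deposited table. Kruppel-like factors were split 4 and 3, with Klf7 (0.32 ± 0.15) and Klf6 (0.37 ± 0.20) higher in the authors' deposited table. Zfp511 had the largest increase of the list, 0.78 ± 0.27 in the authors' deposited table.

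Chromatin genes were even as a whole, with 21 higher and 23 lower. The 4 listed lysine demethylases all fell, Kdm6b, which clears a repressive mark from histone H3, by 0.90 ± 0.21, Kdm5a by 0.53 ± 0.21, Kdm7a by 0.33 ± 0.25 and Kdm3a by 0.31 ± 0.24 in the authors' deposited table. Members of repressor complexes were among those that rose, with Sin3b at 0.71 ± 0.19 and Hdac5 at 0.65 ± 0.31 in the authors' deposited table. Tasor, of the complex that silences transposons, fell by 0.66 ± 0.31 in the authors' deposited table. H3f3b, a histone gene, rose by 0.46 ± 0.14 in the authors' deposited table.

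Vesicle transport had 38 higher and 42 lower members of 80. Rab GTPases, which give membranes their identity, fell in 6 of 9 listed cases. Rab5a, of early endosomes, fell by 1.01 ± 0.21, Rab8b by 0.55 ± 0.20 and Rab21 by 0.44 ± 0.28 in the authors' deposited table. Both listed subunits of retromer, which returns cargo from endosomes, fell, Vps35 by 0.87 ± 0.26 and Vps26a by 0.35 ± 0.28 in the authors' deposited table. The SNARE gene Stx11 and its partner Stxbp2, which serve granule release in cytotoxic and myeloid cells, rose by 0.47 ± 0.14 and 0.34 ± 0.15 in the authors' deposited table. Preb (0.53 ± 0.19), which starts COPII coats, and Copz1 (0.53 ± 0.21), a subunit of COPI, rose in the authors' deposited table.

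Actin genes had 18 higher and 23 lower members of 41. ARP2/3, the complex that branches actin filaments, had 5 lower and 2 higher of 7 listed subunits. Arpc3 fell by 0.79 ± 0.30, Actr2 by 0.35 ± 0.20, Arpc5 by 0.28 ± 0.13, Actr3 by 0.27 ± 0.13 and Arpc4 by 0.25 ± 0.16 in the authors' deposited table. The subunits that rose, Arpc1b (0.43 ± 0.17) and Arpc1a (0.25 ± 0.20), are alternative forms of the same position in the complex, and the values are from the authors' deposited table. Cap1 (-0.70 ± 0.22) and Wdr1 (-0.43 ± 0.13), which recycle actin, and Vasp (-0.35 ± 0.13), which lengthens filaments, fell in the authors' deposited table. Twf1 (0.53 ± 0.21), Lsp1 (0.47 ± 0.21) and the myosin gene Myo9b (0.50 ± 0.22) rose in the authors' deposited table.

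Adhesion and migration genes rose in 18 of 25 cases (72.0%). Of the 25, 6 were in the CD11c-high table (24.0%, against 7.32% of all CD11c-low genes). The list was also more abundant, with a median average normalised count of 812 against 335 over all listed genes, and the part of abundance in this overlap was not tested. Of the proteins that link integrins to the cell interior, Lims1 rose by 0.60 ± 0.16, Fyb by 0.46 ± 0.13 and Tln1 by 0.40 ± 0.19 in the authors' deposited table. Cd47, the signal that protects cells from being engulfed, fell by 0.51 ± 0.15, and the chemokine receptor gene Cxcr4 by 0.47 ± 0.28 in the authors' deposited table.

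Phosphatases were divided by kind. Protein tyrosine phosphatases rose in 6 of 7 listed cases, among them Ptpn1 (0.56 ± 0.17), Ptpre (0.34 ± 0.16), Ptp4a2 (0.29 ± 0.14) and Ptprc (0.26 ± 0.13), the gene of CD45, in the authors' deposited table. Catalytic subunits of serine and threonine phosphatases fell in 6 of 8 cases. Ppm1a fell by 0.82 ± 0.25, Ppp6c by 0.57 ± 0.18 and Ppp3ca, of calcineurin, by 0.43 ± 0.21 in the authors' deposited table, and its regulatory subunit gene Ppp3r1 fell by 0.60 ± 0.32. Ppm1h (0.64 ± 0.20) and Ppp4c (0.31 ± 0.20) rose in the authors' deposited table. The list of protein kinases was split 16 and 16. Braf (-0.68 ± 0.27), Nek7 (-0.67 ± 0.29), an activator of the NLRP3 inflammasome, and Gsk3b (-0.62 ± 0.28) were lower in the authors' deposited table. Among those higher was Hipk1, at 0.47 ± 0.27 in the authors' deposited table.

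Other functions gave smaller or divided groups. Chaperones had 11 higher and 4 lower members, and all 4 listed DNAJ genes were higher, with Dnajc1 at 0.36 ± 0.22 in the authors' deposited table. In the endoplasmic reticulum list 15 rose and 11 fell, with Selenof (0.83 ± 0.22) and Pdia6 (0.64 ± 0.24), both of protein folding, higher, and Tram1 (-0.76 ± 0.26) and Spcs3 (-0.59 ± 0.21), of protein entry, lower in the authors' deposited table. Redox genes had 12 higher and 6 lower members. Cytosolic subunits of the NADPH oxidase, which makes superoxide, rose slightly, Ncf4 by 0.19 ± 0.15 and Ncf1 by 0.14 ± 0.10 in the authors' deposited table. Gsr, glutathione reductase, fell by 0.61 ± 0.20 at an average normalised count of 8019, and Msrb1 by 0.73 ± 0.33 in the authors' deposited table. Among transporters, 17 higher and 11 lower, the iron exporter gene Slc40a1 fell by 0.71 ± 0.21 and the zinc importer gene Slc39a1 by 0.78 ± 0.34, and the amino acid transporter chain gene Slc3a2 rose by 0.47 ± 0.14 in the authors' deposited table.

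Genes listed in both subsets were more abundant and had smaller s-values than the others. The 97 shared genes had a median average normalised count of 852 and a median s-value of 0.0045, against 310.4 and 0.0176 for the 1229 others, and a median size of change of 0.46 against 0.37. The CD11c-high table listed 28% of genes with an s-value up to 0.0001 in CD11c-low cells and 4.5% of those between 0.01 and 0.05. By abundance it listed 0.602% of the lowest quartile and 16% of the highest. Against 7.32% of all CD11c-low genes, no gene was shared in the lists for proteasome, nuclear pore, mRNA decay, oxidative phosphorylation and mitochondrial import. The same held for phosphoinositide signalling, glycosylation, endoplasmic reticulum, glycolysis and tricarboxylic acid cycle, NF-kB, nucleotide metabolism and eosinophil identity, among others. The lists named have 8 to 26 members, so few shared genes would be counted in each at the share over all genes. A gene absent from the CD11c-high table was not called or not tested there, and the difference between subsets was not tested. The 163 genes of the CD11c-high table, immunoglobulin segments left out, are far fewer, so a low shared share is the rule for any list.

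**Figure D4:**
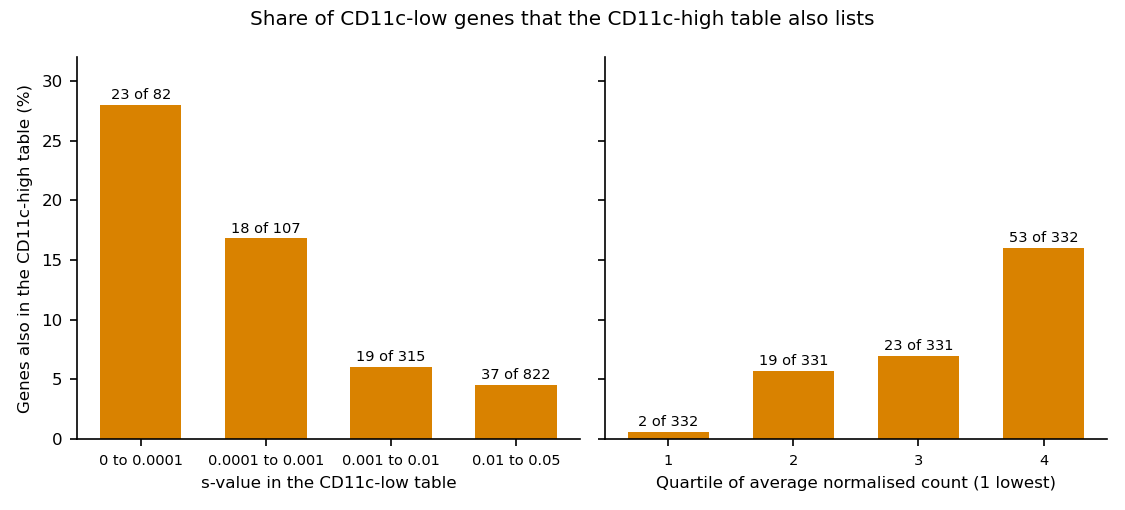
Bars give the percentage of CD11c-low genes that the CD11c-high table also lists, by s-value in the CD11c-low table (left) and by quartile of average normalised count (right), with numbers of genes above. The share is 28% for the smallest s-values and 4.5% for the largest, and 0.602% in the lowest and 16% in the highest quartile of abundance.

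Transcript features moved with direction. Over GENCODE M21 protein-coding transcripts, matched for 95.7% of listed genes, those of genes that fell were longer (median 2306 bases against 1778) and lower in GC content (47.7% against 50.7%). Ribosomal proteins, with short transcripts (median 639 bases), went against this, and without them the genes that fell had a median of 2487 bases and 47.1% GC. By list the lengths varied. Among lists with mostly lower members, median lengths were 3855 bases for nuclear pore, 2685 for mRNA decay, 2098 for transcription factors and 1438 for mitochondrial import. Among lists with mostly higher members they were 1488 bases for interferon response, 1582 for lysosome, 2043 for innate receptors, 2278 for cAMP genes and 2576 for lipid genes. The part of length and GC content in the counts by function was not tested.

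Of 20 eosinophil markers fixed as a list, 7 were among the listed genes, 4 higher and 3 lower at ZT15. Among the 7, Siglecf had an average normalised count of 1633, Adgre1 of 2776 and Csf2rb of 2381 in the authors' deposited table. Ccr3, Epx, Prg2, Il5ra and Itgax were not among listed genes, so their levels, and with them the CD11c gate, could not be checked here. Of the 16 markers for B and plasma cells 2 were listed, both higher at ZT15, Bank1 by 0.32 ± 0.15 at an average normalised count of 1145 and Ighm by 0.24 ± 0.20 at 522 in the authors' deposited table. Of markers for T and innate lymphoid cells 1 of 15 was listed, the granzyme gene Gzma. The authors' deposited table gave it as higher, at an average normalised count of 30.4 with a fitted change of 20.99 ± 3.33, from which no fold is read. Of those for other myeloid cells 4 of 19 were listed (3 higher, 1 lower). For mast cells and basophils 1 of 10 was listed, the histamine-forming enzyme gene Hdc, and the authors' deposited table gave it 0.58 ± 0.20. For epithelium 1 of 15 was listed, the keratin gene Krt18, which the authors' deposited table put at -0.35 ± 0.24. None of 12 markers for stroma or 3 for red cells was listed. The immunoglobulin segments left out had 8 higher and 6 lower members. Since levels per library were not analysed here, the part of other cells in any gene group was not tested, and fewer cells of a type cannot be told apart from less RNA per cell. The labels do not say that libraries came from separate mice, so the spread between libraries may be technical. The errors come from the authors' fit to these libraries only, and the shrinkage of that fit is not stated.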

How the data were processed

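Poly(A) RNA of 1000 sorted cells per library was amplified and sequenced, per the labels' protocols. Without giving roles, the submitters' processing notes name STAR 2.7.10b, DESeq2 1.38.3 and GRCm39. The sources used here do not state the counting step, annotation, strand setting or shrinkage. Per the file headers, the authors deposited, for each gene, an average normalised count (a signal over libraries), a log2 fold change with its standard error, and an s-value, which is used like a q-value and is not a p-value. Each table holds one comparison and no column of a library, so the depth per library is unknown, no test was run here, and the planned tests gave way to counts of the authors' calls at an s-value under 0.05. The direction, PM over AM, was read from the tables' names. The preparation does not mark strand, so overlapping genes cannot be told apart.

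The members and lists were chosen with earlier results of these data known. After the symbols had been read, 185 entries were added to the 47 function lists and 32 removed, by what the genes are. Named genes, at an average normalised count of at least 50 and without immunoglobulin segments and predicted genes (62 of 1326), were the 12 with the smallest s-value and the 8 with the largest change per direction among genes absent from the CD11c-high table. To these were added up to 4 members per direction of each list, listed clock genes and listed markers. Members of families (such as HECT ligases, CD300 receptors, ARP2/3, demethylases), genes with a printed promoter and the rest were chosen after their values were seen. Python 3.11.15, pandas 2.3.3 and NumPy 2.4.6 were used, and the recovery of false sign rates from s-values was tested on simulated data. Alternatives were an s-value under 0.01 or 0.001, an average normalised count of at least 50 or 200, a log2 change of at least 0.25, a false sign rate of each gene under 0.05, and the lists before correction. A few listed genes and 1 list are left unreported by name.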

Additional observations from a re-analysis of the deposited data

How the results depend on the processing

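The counts of calls followed the threshold. At an s-value under 0.01 the numbers were 265 higher and 239 lower, with 444 genes absent from the CD11c-high table, and at 0.001 they were 109 and 80. With an average normalised count of at least 200, 393 genes were lower and 806 absent from the CD11c-high table. With a false sign rate of each gene under 0.05, an alternative added after seeing the data, 363 were higher and 329 lower. The excess of lower ribosomal proteins went to 0% higher at an s-value under 0.01 and with that false sign rate. Over 45 lists with 5 or more members, 192 of 221 shares stayed within their interval, 12 moved and 17 passed to the other side of 50%. The interval is the exact binomial 95% interval of the list's share in the whole table, which treats its genes as independent. Most of these alternatives count a part of the same genes, so agreement is in part built in. At an s-value under 0.01 and at that false sign rate, the shares higher that crossed included 25% and 36.4% for translation factors, 33.3% and 40% for nucleotide metabolism, 28.6% and 45.5% for transport, 57.1% and 54.5% for chromatin, 37.5% and 44.4% for immediate early genes, 71.4% and 66.7% for cell death and 40% and 45.5% for the endoplasmic reticulum. NF-kB genes were at 37.5% higher at that false sign rate, and oxidative phosphorylation at 47.6% with the list before correction, also an alternative added after seeing the data. In the whole table these lists lay between 46.2% and 60.7% higher, and fewer genes were counted under both limits. No paired analysis was possible because the deposited columns hold no single library, and leaving out a library could not be run for the same reason.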

Other observations

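Outside the function lists stood 310 genes, 179 higher and 131 lower (57.7% higher). Ctnnb1, the gene of beta-catenin, rose by 0.69 ± 0.26, Hpcal1, a calcium sensor, by 0.65 ± 0.20 and Calm2, a calmodulin gene, by 0.39 ± 0.17 in the authors' deposited table. Alas1, the first enzyme of heme synthesis, rose by 0.46 ± 0.21, Lias, which makes lipoic acid for mitochondrial dehydrogenases, by 0.60 ± 0.29, and Wnt11, a secreted Wnt ligand, by 0.49 ± 0.24 in the authors' deposited table. Myadm (-0.85 ± 0.26), a membrane protein of myeloid cells, Ypel5 (-0.51 ± 0.15), a subunit of a ubiquitin ligase complex, Septin1 (-0.56 ± 0.20), of the septin cytoskeleton, and Tspan5 (-0.71 ± 0.29), a tetraspanin, fell in the authors' deposited table. These genes were chosen after their values were seen, and all were absent from the CD11c-high table.

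A few listed genes of low abundance had fitted changes too large to read as folds. The authors' deposited table gave Gzma 20.99 ± 3.33 at an average normalised count of 30.4, Lacc1 -4.96 ± 1.03 at 20.4, Trdn -4.90 ± 2.80 at 15.1, Cwf19l1 -3.71 ± 3.09 at 14.2 and Crat the value given above.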
